A study of Homo sapiens with 8 samples.

Results

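The genes described here encode the voltage-gated sodium channels (SCN) and voltage-gated calcium channels (CACN). They were all 40 protein-coding genes, of 58395 genes in the count table, whose symbols name a sodium channel alpha or beta subunit or a calcium channel alpha1, alpha2delta, beta or gamma subunit, and no measured value entered the choice. The epithelial sodium channel genes were left out. Messenger RNA was sequenced from iCell DopaNeurons, a commercial dopaminergic neuron product made from human induced pluripotent stem cells, after 4 days on coated coverslips. In the group named GDNF (4 libraries) the coverslips carried a nanostructure built to imitate the neurotrophic factor GDNF. In the group named CT (4 libraries) the coating was taken to be the scrambled nanostructure named as comparator in the series design, since the sample titles give no more than the letters CT. Both groups carry the treatment label 10.73 mM and used the same cell product, and the medium was changed a single time, 24 hours after seeding. The design text speaks of 3 biological replicates per condition, the titles number 4 libraries in each group, and nothing in the labels ties a library to a culture of its own. The p-values therefore measure the spread between these libraries, which may be technical.

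Voltage-gated sodium channels open when the membrane depolarises and carry the rising phase of the action potential. Their pore is a single alpha subunit, and beta subunits adjust its gating and placement. Voltage-gated calcium channels turn depolarisation into calcium entry, which drives transmitter release and gene regulation and contributes to the slow autonomous pacemaking of midbrain dopaminergic neurons. Their pore is an alpha1 subunit, which in the L, P/Q, N and R types assembles with alpha2delta and beta subunits, while T-type channels open close to the resting potential. Most gamma subunits of this family are TARPs, which serve mainly as auxiliary subunits of AMPA-type glutamate receptors.

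Total counts were 29532090 to 34559240 per library in GDNF and 28698283 to 31692788 in CT. A count of 0 therefore allows up to 0.0856 to 0.104 CPM (counts scaled to library size) in a library (3 counts, counting error only). The neuronal marker MAP2 averaged 3064 ± 255 CPM in GDNF and 2889.7 ± 478 CPM in CT (SD, n = 4 each, as in all means by group below), and TH, the enzyme that makes the dopamine precursor, averaged 219 ± 40.3 CPM in GDNF and 220.1 ± 74.8 CPM in CT. The dopamine transporter SLC6A3, a further defining marker, averaged only 0.664 ± 0.285 CPM in GDNF and 0.431 ± 0.289 CPM in CT. The library CT replicate 2 stood apart along the GC content of transcripts, and where the sign of a channel gene's log2 fold change below turns without it, both values are given.

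The neurons transcribed most of the channel repertoire on both coatings. Of the 40 genes, 33 averaged at least 1 CPM and 27 at least 5 CPM over the 8 libraries. CPM per kilobase of annotated exon was used to compare levels between genes. On that scale CACNG4, a TARP, stood highest at 133 ± 20.5 CPM per kb (SD, n = 8, as in all levels per kb below), followed by the sodium channel beta subunit SCN3B at 81.4 ± 4.76 and the TARP CACNG7 at 61.9 ± 12.7. CACNB3, CACNA1H, CACNB1, SCN3A and CACNA2D2 followed at 39.04 to 21.1 CPM per kb, and CACNA1E and CACNA1B at 14.5 and 14.4. The ranges over the 8 libraries overlapped for 33 of the 39 pairs of neighbours in this order. CACNG4 was separate from SCN3B, as were CACNA2D2 from CACNA1E, CACNA1B from CACNG8, CACNA1C from SCN8A, SCN8A from CACNA2D3 and SCN11A from CACNG3. At the bottom, CACNG6, CACNA2D4, CACNA1S, SCN4A, CACNA1F and SCN10A averaged 0.124 CPM per kb or less. Scaled to the longest annotated transcript in place of all annotated exons, the same 10 genes filled the top 10 ranks, while CACNA1A moved up to rank 15, against rank 23, and CACNG8 down to rank 18, against rank 11.

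**Figure D1:**
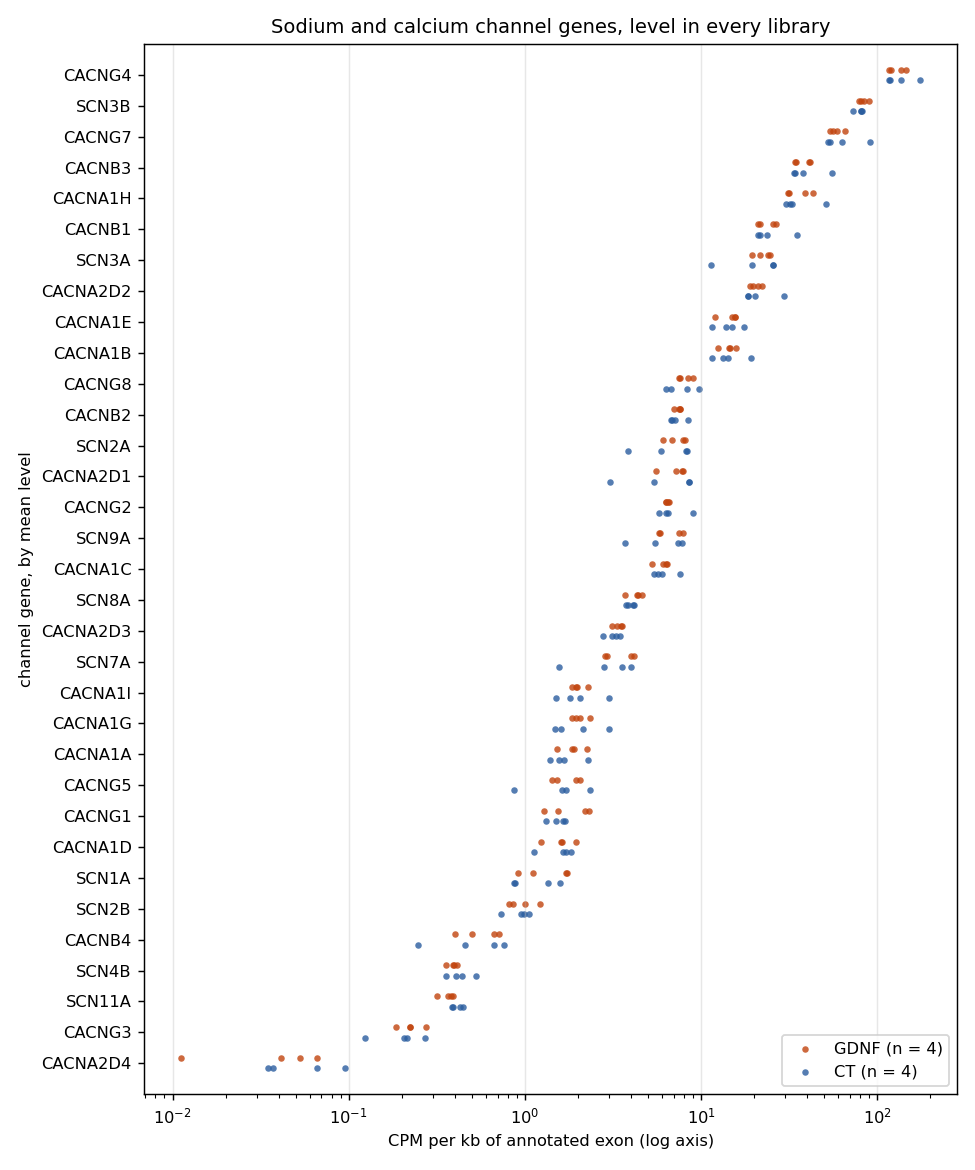
Level of 33 tested channel genes in every library, as CPM per kb of annotated exon on a log axis, with the 4 GDNF libraries drawn above the 4 CT libraries of the same gene. CACNG4 and SCN3B lie at the top, the groups overlap for all 33 genes, and the most displaced CT points of many genes belong to CT replicate 2.

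The comparison asks whether the GDNF mimic raised or lowered the transcripts of these channels. No channel gene passed the test. SCN4A, SCN10A, CACNA1F, CACNA1S and CACNG6 stayed under the filter on low counts and were not tested. In the quasi-likelihood test of edgeR with Benjamini-Hochberg adjustment over 19999 genes, 0 of the 35 tested channel genes were called higher and 0 lower in GDNF, beside 0 of 19999 in each direction for all genes (0%). At an unadjusted p under 0.05 there were 0 channel genes, beside 0.88% of all genes tested, and DESeq2 also gave 0 (0.755% of all genes). Of the 35, 19 had a log2 fold change above 0 and 16 below, with a median of 0.017, while 47.6% of all genes lay above 0 with a median of -0.0098. For no channel gene did all GDNF libraries lie above or below all CT libraries, which held for 0.305% and 0.625% of all genes. For 34 of the 35 the 95% confidence interval (CI) reached no further than 2-fold in either direction, and for 22 no further than 1.5-fold. The latter is 62.86% of the 35, of which 27 averaged at least 5 CPM. For all genes of at least 5 CPM the share was 79.31%. That set leaves out genes of lower counts, so the shares are not of like sets and were not compared. Limma-voom with sample quality weights, which give less weight to a library that departs from the rest, also called 0 genes and had 2 channel genes at an unadjusted p under 0.05, CACNA1A (log2 fold change 0.23) and CACNA2D4 (-1.09), where 4.19% of all genes reached that p. Both are named because of that p. In bulk RNA, fewer cells of a type and less RNA per cell cannot be told apart, and this holds for all values below.

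**Figure D2:**
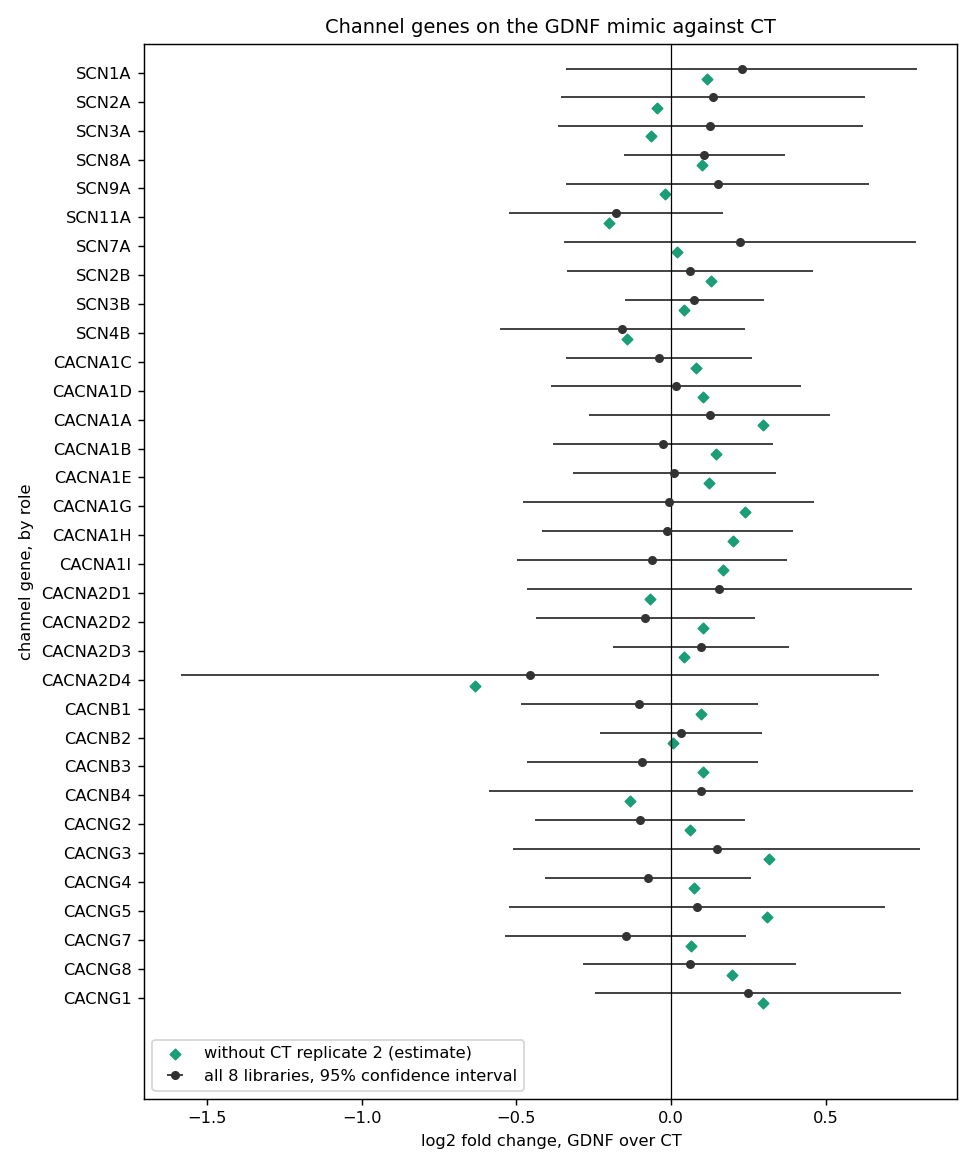
Log2 fold change of GDNF over CT for 33 tested channel genes, with the 95% confidence interval over all 8 libraries (circles, n = 4 each) and the estimate without CT replicate 2 (diamonds). Every interval includes 0, and 25 of the 33 diamonds but 19 of the 33 circles lie above 0.

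Among the pore-forming sodium channel genes the fetal-type channel SCN3A was the most abundant, and all 4 of the central neuronal type had fold changes above 0 without passing. SCN3A (Nav1.3, prominent in the fetal brain; ENSG00000153253, chromosome 2, 165087522 to 165204067 in GRCh38) had 242, 237, 211 and 192 CPM in GDNF replicates 1 to 4, against 253, 112, 192 and 251 CPM in CT replicates 1 to 4. CT replicate 2 was the lowest of all libraries, and the other CT libraries overlapped the GDNF libraries. Its log2 fold change was 0.13 (95% CI -0.37 to 0.62). SCN2A (Nav1.2, an early channel of axon initial segments; ENSG00000136531, chromosome 2, 165194993 to 165392310) had 192, 188, 162 and 143 CPM in GDNF replicates 1 to 4, against 198, 90.8, 141 and 194 CPM in CT replicates 1 to 4. The pattern was that of SCN3A, with a log2 fold change of 0.14 (95% CI -0.36 to 0.63). With CT replicate 2 left out they became -0.065 for SCN3A and -0.046 for SCN2A. SCN8A (Nav1.6, the main channel of mature initial segments and nodes) had 65.2, 69.2, 55.3 and 64.7 CPM in GDNF replicates 1 to 4, against 62.02, 57.3, 55.7 and 60.98 CPM in CT replicates 1 to 4. Its 8 libraries lay close together and the groups overlapped, with 0.11 (95% CI -0.15 to 0.37). SCN1A (Nav1.1, the channel of Dravet syndrome) had 28.9, 29.4, 15.5 and 18.9 CPM in GDNF replicates 1 to 4, against 22.9, 14.6, 14.97 and 26.8 CPM in CT replicates 1 to 4. GDNF replicates 3 and 4 and CT replicates 2 and 3 were the lower libraries, so that both groups were split, and the log2 fold change was 0.23 (95% CI -0.34 to 0.80). Per kb of exon the order SCN3A, SCN2A, SCN8A, SCN1A held in all 8 libraries, except that SCN2A was below SCN8A in 1 library.

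The sodium channels known from pain-sensing neurons and from muscle were unevenly represented. SCN9A (Nav1.7, which amplifies small depolarisations in sensory neurons) had 104, 108, 79.1 and 80.5 CPM in GDNF replicates 1 to 4, against 102, 50.7, 75.2 and 107 CPM in CT replicates 1 to 4. Again CT replicate 2 alone lay far below the rest, with a log2 fold change of 0.15 (95% CI -0.34 to 0.64) over all libraries and -0.020 without CT replicate 2. SCN11A (Nav1.9) had 3.03, 2.83, 2.92 and 2.43 CPM in GDNF replicates 1 to 4, against 3.45, 2.99, 2.97 and 3.28 CPM in CT replicates 1 to 4. The groups overlapped, and the log2 fold change was -0.18 (95% CI -0.52 to 0.17), the value with the smallest p of the tested channel genes (edgeR, unadjusted p = 0.281, adjusted p 0.9999). SCN10A (Nav1.8) was listed with 0 counts in all CT libraries and with 1 count in each of 2 GDNF libraries. SCN7A, a sodium-sensing relative that does not act as a voltage-gated channel, had 37.7, 36.5, 26.7 and 26.1 CPM in GDNF replicates 1 to 4, against 32.5, 14.2, 25.7 and 36.2 CPM in CT replicates 1 to 4. Its log2 fold change was 0.22 (95% CI -0.34 to 0.79), and 0.019 without CT replicate 2. The skeletal muscle channel SCN4A (Nav1.4) had 1 to 15 counts per library and was not tested.

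Several SCN genes lie side by side in the genome. On chromosome 2, between 165087522 and 166494326, lie SCN3A, SCN2A, SCN1A, SCN9A and SCN7A, and each averaged at least 21.5 CPM. On chromosome 3, between 38696807 and 38950561, lie SCN10A and SCN11A, and neither averaged more than 2.99 CPM. The 5 genes of the first cluster were the ones with the lowest transcript GC content among the SCN genes (36.9% to 39.1%).

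Sodium channel beta subunit RNA was almost all SCN3B. SCN3B (the beta3 subunit, bound to the alpha subunit without a covalent bond; ENSG00000166257, chromosome 11, 123629187 to 123655244) had 792, 769, 854 and 748 CPM in GDNF replicates 1 to 4, against 763, 692, 769.7 and 778 CPM in CT replicates 1 to 4. GDNF replicate 3 was the highest and CT replicate 2 the lowest library, the groups overlapped, and the log2 fold change was 0.075 (95% CI -0.15 to 0.30). SCN3B made up 97.8% ± 0.189 of the summed CPM per kb of the 4 beta genes in GDNF and 97.6% ± 0.499 in CT. SCN2B, a disulfide-linked subunit, had 4.74, 5.80, 7.13 and 5.001 CPM in GDNF replicates 1 to 4, against 5.79, 6.12, 5.53 and 4.25 CPM in CT replicates 1 to 4, with overlapping groups and 0.062 (95% CI -0.34 to 0.46). SCN4B averaged 2.19 ± 0.122 CPM in GDNF and 2.44 ± 0.408 CPM in CT.

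Among calcium channel pores, the T-type gene CACNA1H and the R- and N-type genes CACNA1E and CACNA1B led. CACNA1H (Cav3.2; ENSG00000196557, chromosome 16, 1153121 to 1221772) had 272, 269.8, 335 and 370.2 CPM in GDNF replicates 1 to 4, against 282, 439, 275 and 261 CPM in CT replicates 1 to 4. CT replicate 2 was the highest library, 2 GDNF libraries lay above and 2 within the range of the other 3 CT libraries, and the log2 fold change was -0.012 (95% CI -0.42 to 0.39). Without CT replicate 2 it was 0.20. The other T-type genes were far lower per kb, with CACNA1I (Cav3.3) at 19.95, 21.3, 20.97 and 24.5 CPM in GDNF replicates 1 to 4, against 22.3, 32.4, 16.3 and 19.5 CPM in CT replicates 1 to 4. Its groups overlapped, with -0.061 (95% CI -0.50 to 0.38) over all libraries and 0.17 without CT replicate 2. CACNA1G (Cav3.1) averaged 19.9 ± 2.01 CPM in GDNF and 19.99 ± 6.76 CPM in CT. CACNA1H was above both in all 8 libraries per kb.

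CACNA1E (Cav2.3, the R-type channel; ENSG00000198216, chromosome 1, 181317690 to 181808084) had 275, 283, 219 and 286 CPM in GDNF replicates 1 to 4, against 274, 319, 209.9 and 253 CPM in CT replicates 1 to 4. GDNF replicate 3 and CT replicate 3 were the lowest libraries of their groups, and the log2 fold change was 0.012 (95% CI -0.32 to 0.34). CACNA1B (Cav2.2, the N-type channel of presynaptic terminals; ENSG00000148408, chromosome 9, 137877789 to 138124624) had 142, 144, 123 and 156 CPM in GDNF replicates 1 to 4, against 140.1, 190.1, 114 and 132 CPM in CT replicates 1 to 4. The CT libraries spanned the whole GDNF range, and the log2 fold change was -0.025 (95% CI -0.38 to 0.33), and 0.14 without CT replicate 2. Which of CACNA1E and CACNA1B is higher per kb depended on the library and on the length used: CACNA1E was above CACNA1B in 4 of 8 libraries by annotated exons and in 8 of 8 by the longest transcript. CACNA1A (Cav2.1, the P/Q-type channel) had 80.4, 81.9, 65.9 and 96.7 CPM in GDNF replicates 1 to 4, against 71.99, 98.8, 59.6 and 67.6 CPM in CT replicates 1 to 4. GDNF replicate 4 and CT replicate 2 were the highest of their groups, and the log2 fold change was 0.13 (95% CI -0.26 to 0.51). It was 0.30 without CT replicate 2 (edgeR, unadjusted p = 0.0269, adjusted p 0.996), where 1.92% of all genes had an unadjusted p under 0.05, and 0.20 with offsets for GC content and length, whose interval was -0.0055 to 0.41.

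Of the L-type pores, CACNA1C stood above CACNA1D in all 8 libraries per kb by either length. CACNA1C (Cav1.2, the widespread neuronal and cardiac form; ENSG00000151067, chromosome 12, 1970786 to 2697950) had 116, 122, 101 and 121 CPM in GDNF replicates 1 to 4, against 109, 145, 103 and 115 CPM in CT replicates 1 to 4. CT replicate 2 was again the highest library, and the log2 fold change was -0.038 (95% CI -0.34 to 0.26), and 0.082 without CT replicate 2. CACNA1D (Cav1.3, the form linked to pacemaking of dopaminergic neurons; ENSG00000157388, chromosome 3, 53328963 to 53813733) had 33.3, 40.2, 25.4 and 32.9 CPM in GDNF replicates 1 to 4, against 35.4, 37.8, 23.3 and 33.8 CPM in CT replicates 1 to 4. GDNF replicate 3 and CT replicate 3 were the lowest of their groups, and the log2 fold change was 0.017 (95% CI -0.39 to 0.42). The skeletal muscle form CACNA1S had 2 to 13 counts per library and the retinal form CACNA1F 0 to 9, and neither passed the filter on low counts. Beside the muscle genes SCN4A, CACNA1S, CACNG1 and CACNG6, the 5 skeletal muscle markers summed to 1.81 to 3.72 CPM per library in GDNF and 2.28 to 4.31 CPM in CT, none of them at 0 in every library, and their part in these counts was not tested.

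The accessory subunits of the calcium channels were dominated by CACNA2D2, CACNB3 and CACNB1. CACNA2D2 (an alpha2delta subunit that binds gabapentin; ENSG00000007402, chromosome 3, 50362799 to 50504244) had 119.6, 124, 133 and 141 CPM in GDNF replicates 1 to 4, against 128, 186, 117 and 117 CPM in CT replicates 1 to 4. CT replicate 2 stood above all other libraries, with -0.083 (95% CI -0.44 to 0.27) over all libraries and 0.11 without CT replicate 2. CACNA2D1, the other gabapentin-binding subunit, was lowest where CACNA2D2 was highest, at 70.6, 71.05, 64.6 and 50.1 CPM in GDNF replicates 1 to 4, against 76.9, 27.3, 48.6 and 77.2 CPM in CT replicates 1 to 4. CT replicate 2 was the lowest library and the log2 fold change was 0.16 (95% CI -0.47 to 0.78), and -0.069 without CT replicate 2. CACNA2D2 made up 62.4% to 71.4% of the summed CPM per kb of the 4 alpha2delta genes in GDNF libraries and 60.9% to 67.4% in CT replicates 1, 3 and 4, but 83.4% in CT replicate 2. CACNA2D3 averaged 15.8 ± 0.954 CPM in GDNF and 14.8 ± 1.38 CPM in CT. CACNA2D4 had 3 to 21 counts per library and a log2 fold change of -0.46 (95% CI -1.58 to 0.67).

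The beta subunits carry alpha1 subunits to the membrane and set their gating. CACNB3 (ENSG00000167535, chromosome 12, 48813794 to 48828941) had 245, 247, 293 and 296 CPM in GDNF replicates 1 to 4, against 245, 396, 271 and 240.0 CPM in CT replicates 1 to 4. CACNB1 (ENSG00000067191, chromosome 17, 39173456 to 39197703) had 149, 153, 181 and 188 CPM in GDNF replicates 1 to 4, against 154, 249, 169 and 149 CPM in CT replicates 1 to 4. In both genes GDNF replicates 3 and 4 lay above GDNF replicates 1 and 2, and CT replicate 2 above all libraries. Their log2 fold changes were -0.093 (95% CI -0.47 to 0.28) for CACNB3 and -0.10 (95% CI -0.49 to 0.28) for CACNB1, and without CT replicate 2 0.10 and 0.10. CACNB2 averaged 66.6 ± 2.50 CPM in GDNF and 65.1 ± 6.92 CPM in CT while CACNB4 averaged 20.7 ± 5.37 CPM in GDNF and 19.4 ± 8.33 CPM in CT. In CT replicate 2 CACNB4 stood at 8.98 CPM, while CT replicates 1, 3 and 4 held 16.6 to 27.6 CPM.

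Gamma subunit RNA was mostly CACNG4 and CACNG7. CACNG4 (a TARP; ENSG00000075461, chromosome 17, 66964910 to 67033398) had 407, 395, 490.4 and 460.1 CPM in GDNF replicates 1 to 4, against 393, 595, 459.6 and 398 CPM in CT replicates 1 to 4. CT replicate 2 was the highest library, and the log2 fold change was -0.075 (95% CI -0.41 to 0.26), and 0.076 without CT replicate 2. CACNG7 (a TARP of another subclass; ENSG00000105605, chromosome 19, 53909335 to 53943941) had 152, 158, 165 and 184 CPM in GDNF replicates 1 to 4, against 147, 255, 176 and 151 CPM in CT replicates 1 to 4. Its log2 fold change was -0.15 (95% CI -0.54 to 0.24), and 0.066 without CT replicate 2. CACNG4 made up 62.6% ± 1.52 of the summed CPM per kb of the 8 gamma genes in GDNF and 62.3% ± 1.22 in CT. CACNG8 averaged 71.01 ± 6.27 CPM in GDNF and 68.1 ± 13.9 CPM in CT, and CACNG2 (stargazin, the founding TARP) 20.8 ± 0.398 CPM in GDNF and 22.3 ± 4.70 CPM in CT. CACNG5 averaged 2.28 ± 0.413 CPM in GDNF and 2.14 ± 0.787 CPM in CT, and CACNG3 was below 1 CPM in every library. CACNG1, the gamma subunit of the skeletal muscle calcium channel, had 1.94, 1.63, 2.92 and 2.77 CPM in GDNF replicates 1 to 4, against 1.90, 2.13, 2.07 and 1.67 CPM in CT replicates 1 to 4. GDNF replicates 3 and 4 were the highest libraries and GDNF replicate 2 the lowest, with 0.25 (95% CI -0.25 to 0.74). CACNG6 had 2 to 12 counts per library and was not tested. On chromosome 17, CACNG5, CACNG4 and CACNG1 lie side by side between 66835117 and 67056797, and CACNG4 averaged 449.7 CPM while its neighbours averaged 2.21 and 2.13 CPM. On chromosome 19, CACNG7, CACNG8 and CACNG6 lie between 53909335 and 54012669, at 173, 69.5 and 0.230 CPM.

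The spread between libraries followed the GC content of the transcripts, and this split the channel families. In CT replicate 2, log2 CPM minus the mean of the other 3 CT libraries was -1.31 for CACNB4 (35.5% GC), the lowest, and 0.81 for CACNA1G (60.5% GC). The Spearman correlation with GC content was 0.864 across the 33 channel genes of at least 1 CPM and 0.899 across 11814 genes of at least 5 CPM, given as a description, since genes of 1 library share its preparation and depth. All 9 channel genes under 45% GC were lower in CT replicate 2 (median -0.95), among them SCN1A, SCN2A, SCN3A, SCN7A, SCN9A, CACNA2D1 and CACNB4. All 15 channel genes of 55% GC or more were higher (median 0.65), among them CACNA1A, CACNA1B, the 3 T-type genes, CACNB1, CACNB3, CACNG4 and CACNG7. Over all genes of at least 5 CPM the medians in the same GC ranges were -0.76 and 0.60. Against the mean of the other 7 libraries, GDNF replicate 4 also leaned towards GC-rich channel genes (Spearman 0.804), while GDNF replicates 1 and 2 and CT replicates 1 and 4 leaned the other way (-0.778, -0.767, -0.653 and -0.812). GDNF replicate 3 and CT replicate 3 showed little relation to GC content (0.242 and -0.0521), and their channel genes of longer transcripts were lower (Spearman with length -0.591 and -0.530). In GDNF replicates 1 and 2 and CT replicates 1 and 4 the relation to length was of the other sign (0.505, 0.626, 0.454 and 0.311). Over all genes the relation to length was 0.0087 in GDNF replicate 3 and -0.426 in CT replicate 3.

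**Figure D3:**
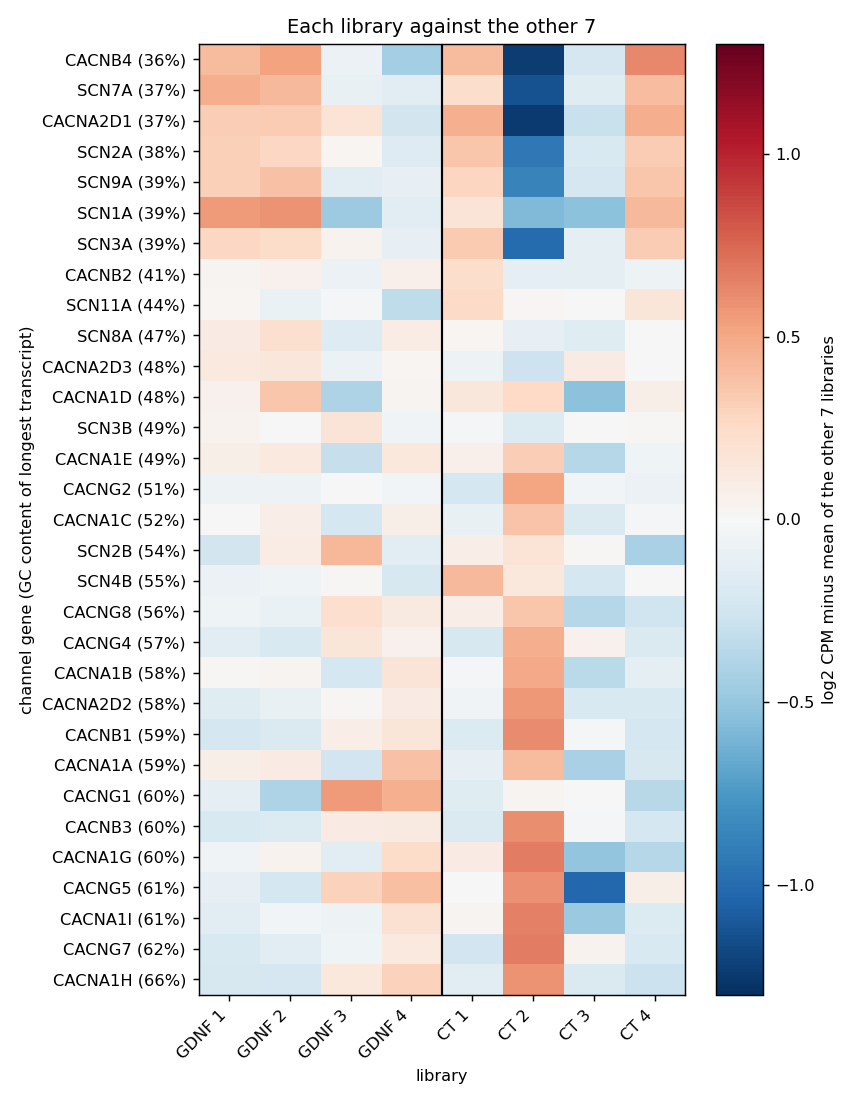
Log2 CPM of each library minus the mean of the other 7, for 31 channel genes of at least 1 CPM, ordered from the lowest (top) to the highest GC content of the longest transcript. The column of CT 2 runs from deep blue for the low-GC genes at the top to red for the GC-rich genes at the bottom, and GDNF 1, GDNF 2, CT 1 and CT 4 run the other way more weakly.

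The direction of the fold changes moved with this split. Over all 8 libraries, 8 of the 9 channel genes under 45% GC had a log2 fold change of GDNF over CT above 0 (88.9%, against 81.4% of all genes of at least 5 CPM in that range), and 4 of the 15 of 55% GC or more did (26.7%, against 8.42%). Without CT replicate 2 these counts were 3 of 9 (33.3%, against 17.7%) and 14 of 15 (93.3%, against 84.3%). With offsets for GC content and length, fitted over all genes and all 8 libraries, they were 6 of 9 (66.7%, against 48.1%) and 12 of 15 (80%, against 50.6%), with medians of 0.038 and 0.030 on the log2 scale. Over the 35 tested genes, 24 lay above 0 with the offsets (49% of all genes) and 27 without CT replicate 2 (49.5% of all genes). No channel gene passed in either fit. The intervals with offsets were narrower for SCN3A, CACNB3 and CACNA1H, at -0.083 to 0.16 for SCN3A, -0.11 to 0.12 for CACNB3 and -0.059 to 0.16 for CACNA1H, and wider for CACNB2 (-0.41 to 0.20, against -0.23 to 0.30) and SCN4B.

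**Figure D4:**
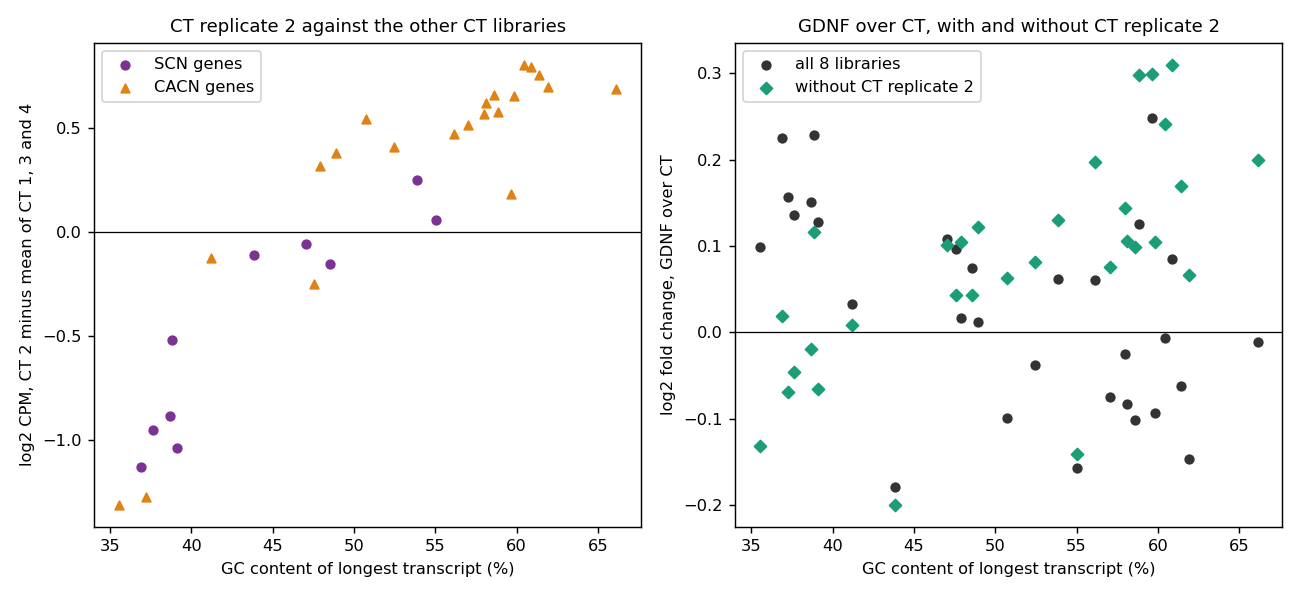
GC content of the longest transcript of 31 channel genes of at least 1 CPM, against log2 CPM of CT replicate 2 minus the mean of CT 1, 3 and 4 (left) and against the log2 fold change of GDNF over CT (right), over all 8 libraries (circles) and without CT replicate 2 (diamonds). On the left the points rise from -1.31 to 0.81, and on the right the circles fall and the diamonds rise with GC content.

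Some pairs of channel genes of like GC content kept a nearly fixed ratio across the 8 libraries, and others did not. The pairs were chosen after the values were seen, and the ratios are descriptions with no test. They say nothing of which gene is higher, since CPM are not scaled to length. CACNB3 over CACNB1 was 1.64, 1.62, 1.62 and 1.57 in GDNF replicates 1 to 4, against 1.59, 1.59, 1.61 and 1.61 in CT replicates 1 to 4. No library departed from the rest, CT replicate 2 included, and the coefficient of variation was 1.34% over the 8 libraries. SCN2A over SCN3A was 0.794, 0.793, 0.767 and 0.745 in GDNF replicates 1 to 4, against 0.782, 0.810, 0.737 and 0.774 in CT replicates 1 to 4. This pair too held together in CT replicate 2, where both genes were at their lowest, and the coefficient of variation was 3.22%. SCN9A over SCN3A ranged from 0.374 to 0.458. SCN1A over SCN3A, also of like GC content (38.8% and 39.1%), was 0.120, 0.124, 0.0735 and 0.0980 in GDNF replicates 1 to 4, against 0.0904, 0.130, 0.0781 and 0.107 in CT replicates 1 to 4. This ratio was lowest in GDNF replicate 3 and CT replicate 3, with a coefficient of variation of 20.7%. Pairs of unlike GC content also varied. CACNA1E over SCN3A was 1.14, 1.197, 1.04 and 1.49 in GDNF replicates 1 to 4, against 1.08, 2.84, 1.09 and 1.009 in CT replicates 1 to 4, highest in CT replicate 2 and next in GDNF replicate 4. CACNA2D1 over CACNA2D2 was 0.147 in CT replicate 2, against 0.356 to 0.659 in the other 7 libraries.

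**Figure D5:**
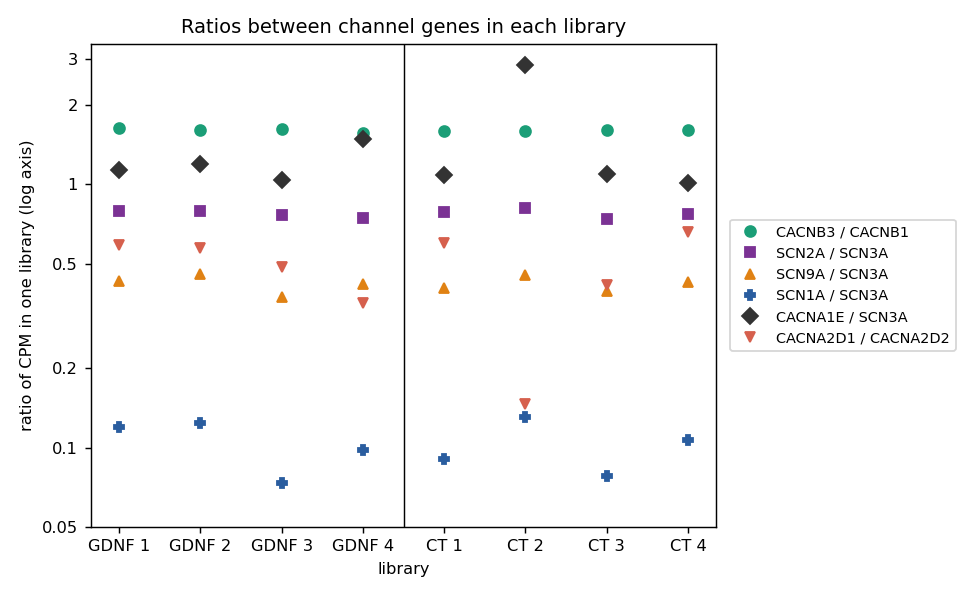
Ratio of CPM between 2 channel genes within each library, on a log axis, with the 4 GDNF libraries left of the 4 CT libraries. CACNB3 over CACNB1 and SCN2A over SCN3A stay level. SCN9A over SCN3A varies from 0.374 to 0.458 and SCN1A over SCN3A from 0.0735 to 0.130. In CT 2, CACNA1E over SCN3A peaks at 2.84 and CACNA2D1 over CACNA2D2 drops to 0.147.

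Promoters of 5 genes are printed here, those of 2 pairs (CACNB3 with CACNB1, and SCN2A with SCN9A) and that of the gene with almost no reads (SCN10A). CACNB3 and CACNB1 kept a nearly fixed ratio. SCN2A and SCN9A were paired through their ratios to SCN3A, whose coefficients of variation were 3.22% and 6.80%. The ratio of SCN2A to SCN9A itself was not taken. The sequences are RefSeq windows of 300 bases on GRCh38.p14, from 250 before to 50 after the RefSeq gene start, written 5′ to 3′ along the gene's strand, with every CpG dinucleotide in capitals.
CACNB3 (chr12:48814230-48814529, plus strand): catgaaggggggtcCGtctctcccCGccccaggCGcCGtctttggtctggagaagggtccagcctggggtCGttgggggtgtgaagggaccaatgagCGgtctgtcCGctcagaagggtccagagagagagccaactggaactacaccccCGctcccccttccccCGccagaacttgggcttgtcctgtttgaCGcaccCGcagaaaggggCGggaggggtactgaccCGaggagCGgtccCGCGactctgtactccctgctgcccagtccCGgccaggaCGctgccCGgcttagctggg
CACNB1 (chr17:39197620-39197919, minus strand): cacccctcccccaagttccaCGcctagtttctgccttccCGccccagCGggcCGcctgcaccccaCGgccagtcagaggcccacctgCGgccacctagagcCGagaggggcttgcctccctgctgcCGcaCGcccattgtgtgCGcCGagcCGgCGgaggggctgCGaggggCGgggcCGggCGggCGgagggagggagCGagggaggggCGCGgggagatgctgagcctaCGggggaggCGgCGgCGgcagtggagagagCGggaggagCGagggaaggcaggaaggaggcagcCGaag
SCN2A (chr2:165239164-165239463, plus strand): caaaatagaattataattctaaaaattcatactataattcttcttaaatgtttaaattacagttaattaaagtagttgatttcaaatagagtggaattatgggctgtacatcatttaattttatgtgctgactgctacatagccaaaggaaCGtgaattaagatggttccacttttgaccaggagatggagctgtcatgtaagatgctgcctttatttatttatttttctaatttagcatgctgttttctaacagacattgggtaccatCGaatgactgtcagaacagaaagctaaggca
SCN9A (chr2:166375895-166376194, minus strand): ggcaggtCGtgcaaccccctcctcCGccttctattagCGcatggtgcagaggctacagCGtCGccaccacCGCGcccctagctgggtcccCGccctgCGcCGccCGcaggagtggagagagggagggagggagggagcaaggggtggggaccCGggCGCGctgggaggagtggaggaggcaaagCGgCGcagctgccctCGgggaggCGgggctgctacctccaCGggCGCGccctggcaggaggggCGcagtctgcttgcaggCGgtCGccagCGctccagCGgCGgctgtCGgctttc
SCN10A (chr3:38793961-38794260, minus strand): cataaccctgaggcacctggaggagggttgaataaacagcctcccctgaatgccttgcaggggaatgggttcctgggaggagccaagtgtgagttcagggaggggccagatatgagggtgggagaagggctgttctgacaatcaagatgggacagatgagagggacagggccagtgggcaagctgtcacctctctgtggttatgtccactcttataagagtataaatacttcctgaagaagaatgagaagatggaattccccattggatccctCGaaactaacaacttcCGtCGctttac
The windows of CACNB3 and CACNB1 hold 19 and 28 CpGs. Those of SCN2A and SCN9A hold 2 and 28, and that of SCN10A holds 3. The transcripts of SCN2A and SCN9A are both of low GC content (37.6% and 38.7%). Whether promoters had a part in the movement of these pairs across the libraries was not tested. For all 5 genes the RefSeq start lies inside the gene as bounded in the count table's annotation, and other start sites were not examined. It lies farthest from the edge in SCN2A (window from 165239164, gene from 165194993). SCN10A comes next (window to 38794260, gene to 38816217). These windows are also those with the fewest CpGs of the 5, and whether they hold the starts used in these neurons was not tested. Windows were matched by symbol for 26 of the 40 genes. Of these, 14 had a CpG ratio (observed over expected from base composition) of at least 0.6, as did 66.6% of 14854 promoters of coding genes. These 14 genes had a median of 3.69 CPM per kb (0.124 to 24.5), and the 12 below that ratio 1.66 (0.00127 to 39.04). Across the 26 genes the Spearman correlation of the CpG ratio with the level was 0.128, given as a description. Not all of these windows lie at the edge of the gene as counted. That of SCN11A (chr3:39051895-39052194) lies outside the gene, which ends at 38950561. Those of CACNA1D, CACNA1E and CACNA1A, among others, lie inside the gene and away from its edge. The TATA motif TATAAA was searched on both strands and found in the SCN10A window alone among the 26, beside 9.36% of all promoters. The GC box GGGCGG, which can overlap CpGs, was found in 59.4% of all promoters, in the windows of CACNB3, CACNB1 and SCN9A, and not in those of SCN2A and SCN10A. A match of letters is a description and not a binding site.

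Genes that bind, anchor or regulate these channels were compared between the coatings in the same way. The list held 52 genes in the table, of which 49 were tested, with 31 log2 fold changes above 0, 18 below and a median of 0.030. Of all genes tested, 47.6% lay above 0, with a median of -0.0098. Without CT replicate 2 the partner split was 32 above and 17 below (49.5% of all genes above 0). With the GC and length offsets the split was 25 above and 24 below (49% of all genes above 0). None passed, and none had an unadjusted p under 0.05 in edgeR (0.88% of all genes). All 3 tested FGF homologous factors, which bind sodium channel tails, lay above 0 over all libraries, but all 3 lay below 0 without CT replicate 2 (-0.076 to -0.098) and with the GC and length offsets (-0.039 to -0.20). Above 0 lay also 9 of 13 genes that bind calcium channels or hold them at release sites, while 4 of 7 calcium-binding proteins lay below. Those 4 (CALB2, CABP1, NCS1 and HPCA) all lay above 0 without CT replicate 2 (0.066 to 0.089). CALB1 turned the other way, from 0.056 to -0.10. The 3 partner genes with at least 5 CPM and the lowest p were GEM, NALCN and RIMS2. GEM, a small GTP-binding protein that inhibits calcium channels, had 12.6, 15.6, 11.02 and 9.53 CPM in GDNF replicates 1 to 4, against 13.5, 13.3, 14.9 and 14.7 CPM in CT replicates 1 to 4. The groups overlapped through GDNF replicate 2, with a log2 fold change of -0.21. NALCN, the sodium leak channel, had 25.98, 26.2, 22.2 and 22.5 CPM in GDNF replicates 1 to 4, against 23.96, 17.6, 20.99 and 23.5 CPM in CT replicates 1 to 4, with CT replicate 2 the lowest library and a log2 fold change of 0.17. RIMS2, which tethers calcium channels at presynaptic release sites, had 43.4, 44.7, 39.02 and 38.8 CPM in GDNF replicates 1 to 4, against 44.5, 27.2, 33.3 and 43.2 CPM in CT replicates 1 to 4, with 0.16 over all libraries and 0.047 without CT replicate 2.

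Some channels of the set are known mainly from other tissues, and markers of other cell types were present to differing degrees. The 5 sensory neuron markers summed to 66.3 to 70.9 CPM in GDNF and 64.8 to 70.8 CPM in CT, nearly all of it POU4F1 and TRPV1, and the sensory factor PRDM12 averaged 1.04 ± 0.114 CPM in GDNF and 1.31 ± 0.312 CPM in CT. The 5 cardiac muscle markers, of which TNNT2 was at 0 in all libraries but CT replicate 2, summed to 0.237 to 0.485 CPM in GDNF and 0.158 to 0.499 CPM in CT. The 5 astrocyte markers summed to 1.89 to 2.94 CPM in GDNF and 2.55 to 3.29 CPM in CT. Markers of the oligodendrocyte lineage, mostly MBP, summed to 46.1 to 53.8 CPM in GDNF and 46.9 to 51.5 CPM in CT. The other 4 of them (PDGFRA, OLIG1, OLIG2 and SOX10) stayed under 1 CPM in every library. Fibroblast markers summed to 39.8 to 53.4 CPM in GDNF and 32.1 to 55.7 CPM in CT, and neural progenitor markers, mostly NES, to 169.9 to 238 CPM in GDNF and 178 to 242 CPM in CT. The fibroblast markers DCN, LUM and PDGFRB and the progenitor markers PAX6 and HES5 stayed under 1 CPM in every library. The part of such cells in the levels of the channel genes was not tested.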

How the data were processed

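The authors deposited raw counts of reads for each Ensembl gene, as whole numbers, with a column for each library. The submitters' processing notes name FastQC, cutadapt, STAR, HTSeq, DESeq2 and the build GRCh38. Not given in the sources used here were tool versions, annotation, strand setting and the treatment of multimapping reads. Exons of 15 of the 40 channel genes overlap a gene on the other strand (at most 13.04% of exonic bases, in CACNB2; 9.91% in SCN3A, 9.59% in CACNA2D2 and 8.17% in SCN9A) and 3 a gene on the same strand (at most 5.98%, in CACNB4), so these levels are uncertain. Reads shared between similar channel genes were not assessed.

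Channel genes were taken by symbol and biotype. All 40 had the same start and end in GENCODE 29, which gave exon length, longest transcript and GC content. The low-count filter was filterByExpr with a minimum count of 10 and a minimum total of 15 (19999 genes remained). Group was the only term in edgeR 4.0.16 (R 4.3.3, TMM, robust quasi-likelihood, two-sided, false discovery rate 0.05), checked on simulated data. The simulated counts held no GC or length trend between libraries, so the check does not cover data with such trends. CPM use TMM-scaled library sizes, and p-values were adjusted over all genes. Alternatives were other scalings, filters, DESeq2 1.42.0, limma 3.58.1, a replicate block, GC and length offsets (splines of 5 degrees of freedom) and leaving out each library. The channel genes, lists and alternatives were chosen with earlier results of these data known. Values were printed for every library for the 2 highest genes of each role and the 5 with the lowest p among those averaging 1 CPM or more. Values of 2 of the 40 channel genes, which stay in the counts and medians, are not reported here. CACNA1A and CACNA2D4 were chosen after their values were seen.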

Additional observations from a re-analysis of the deposited data

Results flagged for a closer look

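In 3 of 66 groups of 4 libraries 1 value lay far from the others by Dixon's criterion. Chance alone gives about 1 in 20, or 3.3 groups, so the count was no higher than chance gives. The groups share the same libraries and are not independent. CACNA1H stood at 439 CPM in CT replicate 2, while CT replicates 1, 3 and 4 held 261 to 282 CPM. CACNA2D2 stood at 186 CPM in CT replicate 2, against 117 to 128 CPM in the others. CACNA1E stood at 219 CPM in GDNF replicate 3, against 275 to 286 CPM in the other GDNF libraries. The first 2 have GC-rich transcripts (66.1% and 58.1%), and their values lie beside the GC relation of CT replicate 2 given above. What part it had in them was not tested.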

How the results depend on the processing

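The count of channel genes past the threshold was 0, and that of partner genes and of all genes 0, under all 16 alternatives run. Of 24 channel genes followed by name, 8 kept the sign of the log2 fold change in every alternative in which they were tested (SCN1A, SCN8A, SCN11A, SCN7A, SCN3B, CACNG1, CACNA1A and CACNA2D4, the last of these untested under the filter of at least 1 CPM in 4 libraries), and none passed in any. The cause of the sign changes was not tested. With limma-voom the log2 fold change was -0.0095 for SCN2A, -0.036 for SCN3A, 0.074 for CACNA1C, 0.095 for CACNA1B, 0.055 for CACNA1H, 0.044 for CACNA1I, -0.050 for CACNA2D1, 0.019 for CACNA2D2, 0.010 for CACNB1, 0.031 for CACNB3, 0.026 for CACNG4 and 0.034 for CACNG7. With the GC and length offsets it was -0.0067 for CACNA1D, 0.050 for CACNA1B, 0.050 for CACNA1H, 0.030 for CACNA1I, 0.0016 for CACNA2D2, 0.0049 for CACNB3 and 0.017 for CACNG4. With upper-quartile scaling it was -0.0058 for CACNA1D and -0.013 for CACNA1E, without the low-count filter 0.0010 for CACNA1H and with the replicate block 0.011 for CACNA1H. Leaving out 1 library at a time gave ranges of -0.046 to 0.27 for SCN2A, -0.065 to 0.26 for SCN3A, -0.020 to 0.29 for SCN9A, -0.066 to 0.14 for SCN2B, -0.10 to 0.082 for CACNA1C, -0.11 to 0.12 for CACNA1D, -0.12 to 0.14 for CACNA1B, -0.084 to 0.12 for CACNA1E, -0.10 to 0.20 for CACNA1H, -0.19 to 0.17 for CACNA1I, -0.069 to 0.33 for CACNA2D1, -0.15 to 0.11 for CACNA2D2, -0.18 to 0.10 for CACNB1, -0.17 to 0.10 for CACNB3, -0.14 to 0.076 for CACNG4 and -0.24 to 0.066 for CACNG7. The median over tested channel genes ran from -0.077 without CT replicate 3 to 0.099 without CT replicate 2, against 0.017 with all libraries. Without the low-count filter CACNA1F, with at most 9 counts in a library, had an unadjusted p of 0.0340 (edgeR, adjusted p 0.99997). The labels do not say whether GDNF and CT libraries of the same number share more than that number. For replicates 1 to 4 their deviations from the group means correlated at 0.706, -0.637, 0.320 and -0.822 across 11820 genes. Most of these libraries also followed GC content over all genes (Spearman -0.812 in GDNF replicate 1, -0.798 in CT replicate 1, 0.729 in GDNF replicate 4 and -0.850 in CT replicate 4). The correlations therefore cannot tell whether cultures were shared. With the replicate block 0 genes were called and 112 had an unadjusted p under 0.05, against 176 without it. Counting error weighs most on CACNA2D4 and CACNG3, the tested channel genes under 1 CPM (3 to 25 counts per library).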
